A study of Caenorhabditis elegans with 3 samples.

Results

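The gene pha-4 of Caenorhabditis elegans encodes the FoxA-type fork head transcription factor PHA-4 and was 1 of 19973 protein-coding genes whose PQM-1 peaks could be read from the deposited lists. Its peaks were every peak whose summit lay in the gene body or within 5000 bp upstream of its annotated 5' end. By this rule pha-4 held 1 of the 682 peaks of the list that passed the irreproducible discovery rate (IDR) procedure. That procedure is meant to keep peaks that recur between replicates, and 516 of the 682 were found in all 3 replicate lists. In addition, pha-4 held 7 of the 30000 peaks of the pooled relaxed list, and 5, 6 and 4 of the 30000 peaks of replicates 1, 2 and 3. The gene was chosen by its peaks in these same lists, so its ranks and counts are given as a description and were not tested.

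The study measured where tagged PQM-1 sits on the genome by sequencing immunoprecipitated chromatin (ChIP-seq) of whole L1 larvae, with 3 biological replicates in 1 group and no second condition to compare. All animals were of strain OP201, genotype unc-119(tm4063) III; wgIs201, and carried PQM-1 with a GFP-FLAG tag at its C terminus. The larvae were of mixed sex, their age was given as unknown, and the antibody entry in the labels was pqm-1. Peaks came from all tissues together, so the cells in which pha-4 was bound cannot be told apart, and the lists hold no expression values. Sequencing depth was not in the lists and is unknown here. Every relaxed list had the same length of 30000 peaks, including background, so a rank near its end says little about binding. A rank of 1 is the highest signal of a list, and the signals are those of the authors' peak caller, on scales that differ between lists.

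PHA-4 is the organ identity factor of the pharynx, the feeding organ of the worm. It is made in cells of the pharynx from early embryogenesis and is needed for them to form, and it is also present in the midgut and hindgut. In adults it is required for the longer life of worms on a restricted diet. PQM-1 is a zinc finger transcription factor that acts with, and often opposite to, the fork head factor DAF-16 in stress and ageing. It is associated with the GATA-like word TGATAAG, also called the DAF-16-associated element.

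The IDR peak of pha-4 spanned chrV:20752735-20753024 on build ce11, just before the gene, which lies on the plus strand at chrV:20753052-20760317 (WBGene00004013). The full 290 bp of the peak are shown because they hold the only stretch of the pha-4 window that ranked high in the lists. The sequence is the plus strand of WBcel235, the same assembly as ce11, and capitals mark the word TGATAAG, the shorter TGATAA that it contains, and the GATA word AGATAG, each on either strand.
pha-4 IDR peak: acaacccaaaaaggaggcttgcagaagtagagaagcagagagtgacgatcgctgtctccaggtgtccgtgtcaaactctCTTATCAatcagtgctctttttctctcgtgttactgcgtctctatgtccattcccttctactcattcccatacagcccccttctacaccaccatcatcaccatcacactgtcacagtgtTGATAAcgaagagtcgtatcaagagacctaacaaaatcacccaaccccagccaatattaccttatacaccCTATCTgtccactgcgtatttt

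In this sequence the first capitals are the only TGATAAG of the peak, which lay on the minus strand at chrV:20752814-20752820 and so reads CTTATCA on the strand shown. The next capitals are a TGATAA on the plus strand at chrV:20752933-20752938. Their starts lay 118 bp apart as TGATAA words. The last capitals are an AGATAG on the minus strand, a GATA word added to the search after the sequence had been seen.

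The pha-4 peak had its summit at position 20752880 of chromosome V, 172 bp upstream of the 5' end of isoform a. That isoform, F38A6.1a.1, is the longest of 3 annotated, with 8 exons and 506 codons. The 5' end of isoform b (7 exons, 442 codons) lay 2611 bp downstream of the summit, and that of isoform c (6 exons, 411 codons) lay 4030 bp downstream. In the annotation the 5' ends of isoforms a and b are the first coding base, with 0 bases before it, and isoform c has 3 bases. These distances are therefore measured to the start of the coding sequence and not to a mapped transcription start.

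Among the 682 IDR peaks, 169 (24.8%) lay closer than 172 bp to the nearest 5' end of a protein-coding transcript, and the median distance was 590 bp. Like pha-4, 478 of them (70.1%) had the summit upstream of that end. The 5' ends were used as annotated and were not restricted to coding starts, so the comparison with pha-4 may mix landmarks. The peak of pha-4 shared 52 of its bases with F38A6.6, a non-coding RNA gene of 125 bp that is annotated once on each strand, at chrV:20752662-20752786. The summit of pha-4 lay 94 bp past the end of that RNA. No protein-coding gene other than pha-4 had this summit in its own window, as was so for 285 of 682 IDR summits (41.8%), whereas 352 summits fell in the windows of several genes.

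**Figure D1:**
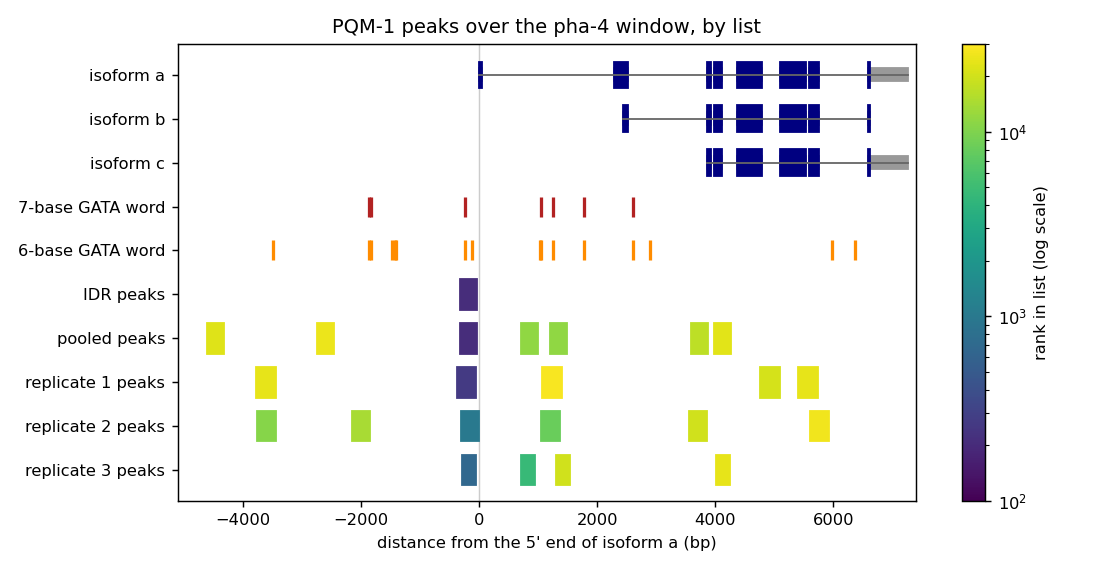
Peaks in the pha-4 window by list, drawn by distance in bp from the 5' end of isoform a, with the exons of the 3 isoforms (wide boxes are coding), the TGATAAG words (7-base GATA word) and the TGATAA words (6-base GATA word). Box colour is the rank in the list on a log scale, and the darkest boxes, ranked 207 to 1010, stand in 1 column just upstream of isoform a in every list, while all others ranked 4649 or lower.

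In each replicate, 1 peak covered at least 82.8% of the IDR peak of pha-4. It ranked 262 in replicate 1, 1010 in replicate 2 and 674 in replicate 3, with a mean rank of 648.7 ± 375.0 (SD, n = 3). These ranks are the highest 0.873%, 3.37% and 2.25% of the lists. Replicate 1 ranked the pha-4 promoter highest and replicate 2 lowest. Ranked among the 682 highest peaks of a replicate, as many as there were IDR peaks, it was in replicates 1 and 3 and missed in replicate 2. In replicate 3 it stood just before the end of that top list. The top lists of replicates 1, 2 and 3 held 66.6%, 57.0% and 31.5% of the IDR peaks. The IDR peaks found in these replicates had median ranks of 392, 502 and 1305. Of them, 249 of 677, 449 of 661 and 211 of 537 ranked better than pha-4. Beside other IDR peaks, pha-4 thus ranked above the median in replicates 1 and 3 and below it in replicate 2.

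Read against all genes, an IDR peak by this rule was held by 1078 of 19973 genes, which is 5.40%. A peak among the highest 682 was held by 5.48% of genes in replicate 1, 5.63% in replicate 2 and 5.68% in replicate 3. Genes with such a peak in all 3 replicates made up 1.02%, and pha-4 was not among them. The window of pha-4, 12266 bp, was longer than the median of 7027 bp. Of the 1782 genes with a window at least as long, 157 (8.81%) had an IDR peak, against 921 of 18191 genes (5.06%) with a shorter one. For pha-4 the rule used these values, so nothing further is read from them.

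The signal of the pha-4 promoter peak was 25.4 in replicate 1, 10.3 in replicate 2 and 11.5 in replicate 3. The highest signals of these lists were 95.4, 77.1 and 54.0. Set against the median peak of its own list, pha-4 stood 3.21 times higher in replicate 1, 2.58 times in replicate 2 and 1.97 times in replicate 3. The order of the replicates by this ratio differed from their order by rank, since replicate 3 had the lowest ratio but a better rank than replicate 2. In the pooled list the signal was 49.2, which was 3.51 times the median of that list and 1.42 times the lowest signal of an IDR peak, 34.6. Its pooled rank was 207, and it stood at place 42 of the 134 IDR peaks of chromosome V.

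Many IDR peaks varied more between replicates than the pha-4 peak. The SD of its log10 rank over the 3 replicates was 0.301, and the median over the 516 IDR peaks found in all 3 replicates was 0.579. A smaller SD was seen for 82 of these 516 peaks (15.9%). Its worst rank, 1010, was equalled or bettered by the worst rank of 125 of the 682 IDR peaks (18.3%), pha-4 included in the count. Top lists of all 3 replicates held 100 IDR peaks, those of 2 replicates held 227, pha-4 among them, those of 1 held 304, and 51 were in none. The IDR list was the 682 highest peaks of the pooled list, and the pooled list holds the same reads as the replicates, so these counts are not independent of each other.

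The replicate summits of the pha-4 promoter peak lay close together. They stood 216 bp upstream of the 5' end of isoform a in replicate 1, 157 bp in replicate 2 and 174 bp in replicate 3, a spread of 59 bp. Replicate 3 lay 2 bp and replicate 2 lay 15 bp from the pooled summit, and replicate 1 stood apart from them at 44 bp. Over the 516 IDR peaks found in all 3 replicates the median spread was 58 bp, with quartiles of 32 and 91 bp, so that of pha-4 was an ordinary one.

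**Figure D2:**
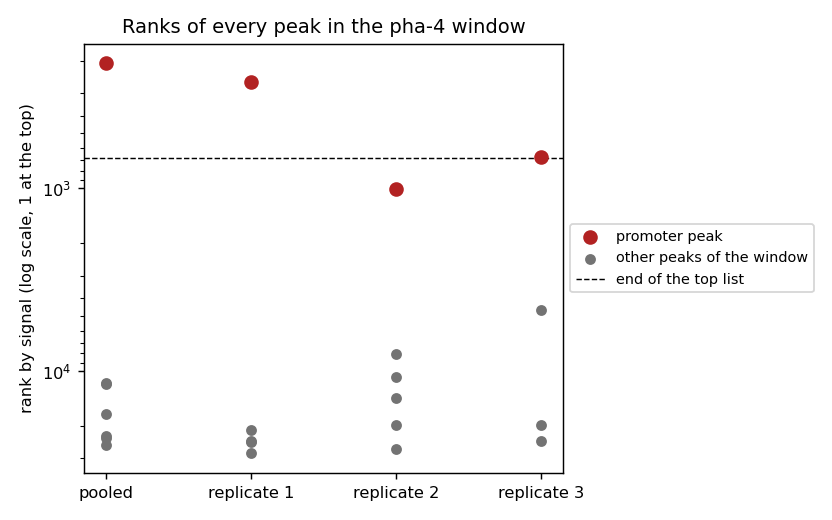
Rank by signal (log scale, 1 at the top) of every peak in the pha-4 window, in the pooled list and in the 3 replicates. Each red point is the promoter peak, at 207, 262, 1010 and 674, each grey point another peak of the window, and the dashed line at 682 is the end of the top list, which the promoter peak of replicate 2 misses.

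The words of the pha-4 peak were compared with those of all IDR peaks on both strands, and every TGATAAG also counts as a TGATAA. The longer word was held by 53.3% of the 679 IDR peaks of full width, by 8.84% of the 29318 other pooled peaks, and by 9.08% of the 290 bp stretches before the 19973 genes. The shorter word, TGATAA, was held by 76.6%, 28.1% and 30.0% of the same regions, and AGATAG by 16.8%, 8.36% and 8.96%. The pha-4 peak thus held both TGATAAG and TGATAA, each found in most IDR peaks, and a less common GATA word. It had 2 TGATAA words, as did 205 IDR peaks (30.2%), while 159 had none. Words on both sides of the summit, the arrangement seen at pha-4, were found in 256 IDR peaks (37.7%).

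At pha-4 the words stood farther from the pooled summit than in most IDR peaks. The TGATAAG ended 60 bp before it and the other TGATAA began 53 bp after it, and no searched word came within 50 bp. Over the 364 IDR peaks with a TGATAAG, the median distance to the nearest one was 26.5 bp and the upper quartile 48.2 bp. A distance above that of pha-4 was seen in 64 of them (17.6%), and for TGATAA in 70 of 522 (13.4%). Over all 682 IDR summits, 38.1% had a TGATAAG and 62.0% a TGATAA within 50 bp.

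Measured from the replicate summits, the TGATAAG of pha-4 was 16 bp away in replicate 1, 75 bp in replicate 2 and 58 bp in replicate 3. The other TGATAA was 97, 38 and 55 bp away. The summit of replicate 1 thus lay by the TGATAAG, that of replicate 2 nearer to the plain TGATAA, and that of replicate 3, like the pooled one, between them. All of these summits lay between both words.

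FoxA and FoxO factors are known to bind the fork head word TGTTTAC and its variants. Of TGTTTAC and the variants searched, which were TGTTTGC, then TATTTAC, and lastly TATTTGT, the pha-4 peak held none. Nor did it hold AGATAA or the added word TGATAG, nor the palindrome CACGTG, which is the core of the E-box that many basic helix-loop-helix factors bind. The fork head words were rare in all regions. The IDR peaks held them at 5.01%, 8.98%, 3.98% and 11.3%, in the order given, and the stretches before genes at 4.88%, 7.38%, 7.02% and 11.3%. CACGTG was held by 9.87% of IDR peaks and 5.65% of those stretches. A missing word says only that these letters were not in this window. The pha-4 peak was richer in G and C, at 45.9%, than the pha-4 window at 36.5%, and lay above the quartiles of the IDR peaks, 34.1% and 41.4%.

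Beyond the promoter, the pha-4 window held 12 replicate peaks of low rank, from 4649 to 28258. Their summits and those of the 6 further pooled peaks fell at 11 positions when summits within 150 bp were joined. No summit lay in an exon, and introns are numbered along isoform a. In the pooled list 3 of the 7 peaks were upstream and 4 in introns. The next rank after the promoter was 11634 in the pooled list, and 20908, 8082 and 4649 in replicates 1, 2 and 3. The promoter signal was 3.66, 1.99 and 1.43 times that of the next peak in the 3 replicates, so replicate 1 set it apart most and replicate 3 least.

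By this joining, only 1 of these 11 positions held summits of all 3 replicates. It lay in intron 1, about 1300 bp after the 5' end of isoform a, and ranked 28258 in replicate 1, 8082 in replicate 2, 19718 in replicate 3 and 11634 in the pooled list. Its summits were spread over 210 bp, more than at the promoter. A position 3604 bp upstream was found in replicate 1 at rank 24190 and in replicate 2 at rank 10751, with summits 5 bp apart, and not in the pooled list. The best rank of any other position, 4649, belonged to a peak in intron 1 of replicate 3, 830 bp after the 5' end, which stood at 11741 in the pooled list and had no match in replicates 1 and 2.

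Near the 5' end of isoform c, in intron 2, a pooled peak ranked 17100 had its summit 130 bp upstream, and the matching peak of replicate 2, ranked 19758, stood 148 bp upstream. Both overlapped F38A6.9, a non-coding RNA gene of 209 bp on the minus strand. Replicates 1 and 3 had none there. In intron 4 the pooled peak at 23178 was matched by replicate 3 at 24207. The other positions belonged to 1 list each, at 22810 and 25544 in the pooled list, 14077 and 26836 in replicate 2, and 20908 and 24388 in replicate 1. Near the 5' end of isoform b there was no close summit, the nearest of any list being that of replicate 3 at 1019 bp upstream.

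The density of relaxed peaks over pha-4 was 0.571 per kb in the pooled list, and 0.408, 0.489 and 0.326 per kb in replicates 1, 2 and 3. Each list averaged 0.299 per kb over the genome, at which this window would hold 3.67 peaks. Any peak at all in a relaxed list was found for 88.0% to 89.2% of genes, so the presence of a weak peak at pha-4 separates it from few genes. Its best rank was bettered by 357 genes (1.79%) in the pooled list. In replicates 1, 2 and 3 it was bettered by 445 (2.23%), 1658 (8.3%) and 1119 (5.6%). The gene was chosen by its peaks and its window was longer than the median, so these shares are only a description.

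At the edges of the window, the outermost pooled summit inside stood 4467 bp upstream, at rank 22810. The nearest summits outside were a peak of replicate 3 ranked 28391, 745 bp beyond the upstream edge, and another of that replicate ranked 8207, 1040 bp past the gene end. The nearest other IDR peaks lay 221770 bp beyond the upstream edge, at rank 91, and 18116 bp past the gene end, at rank 69.

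The weak positions were set beside their words because the pha-4 window held 7 TGATAAG words, 3 upstream and 4 in introns, of which 1 was in the IDR peak. A pair stood 28 bp apart, 1863 and 1835 bp upstream, and had no peak summit of any list within 50 bp, the nearest being that of replicate 2 ranked 14077 at 131 and 159 bp. The first of the pair lay inside that weak peak, near its edge, and the other lay in no peak of any list. Another stood 1255 bp downstream in intron 1, 23 bp from the summit of replicate 1 ranked 28258 and 45 bp from that of replicate 2 ranked 8082. These are shown, plus strand of WBcel235, with the word in capitals, at chrV:20751179-20751205, chrV:20751207-20751233 and chrV:20754297-20754323.
upstream word at -1863: atagtcatttCTTATCAgaaaaactat
upstream word at -1835: ccatggccctTGATAAGaaagattaga
intron 1 word at 1255: gagtgagtatTGATAAGaaacctcttc

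Of the 7 TGATAAG words of the pha-4 window, 1 thus lay in the high-ranked peak, 2 lay in weak peaks and 4 lay in no peak of any list. Of the searched fork head words none was in the promoter peak, and TATTTGT lay near the summit of a weak peak. Other fork head sequences were not searched. The pooled peak ranked 17100, near isoform c, had 3 TATTTGT words and 1 CACGTG within 50 bp of its summit. At least 1 TATTTGT was within that distance of 2.9% of the pooled summits outside the IDR list, and CACGTG of 2.43%. The pooled peak ranked 11634 in intron 1 had 1 AGATAA there, and 5.88% of those summits had at least 1. The 101 bp around both summits are shown, at chrV:20756730-20756830 and chrV:20754341-20754441, with capitals for GATA and fork head words, so that CACGTG is in lower case.
pooled peak ranked 17100: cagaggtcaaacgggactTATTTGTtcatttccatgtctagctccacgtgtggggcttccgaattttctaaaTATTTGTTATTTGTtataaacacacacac
pooled peak ranked 11634: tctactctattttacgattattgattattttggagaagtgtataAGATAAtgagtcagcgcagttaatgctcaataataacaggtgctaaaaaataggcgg

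Within 50 kb of pha-4 on either side there was 1 other IDR peak. It ranked 69, spanned chrV:20778288-20778577 and had its summit 25553 bp from that of pha-4, 1974 bp upstream of hif-1, the gene of the hypoxia-inducible factor. It ranked 164 in replicate 1, 73 in replicate 2 and 328 in replicate 3, a mean of 188.0 ± 129.0 (SD, n = 3), and was ahead of pha-4 in 3 of 3 replicates. The signal of pha-4 was 0.896 times that of the hif-1 peak in replicate 1, 0.471 times in replicate 2 and 0.891 times in replicate 3. The ratio was lowest in replicate 2, where the hif-1 peak had its best rank, 73, and the pha-4 peak its worst, 1010. The hif-1 peak held 1 CACGTG but no fork head word of the list and, unlike pha-4, no GATA word of the list. Its central 101 bp, at chrV:20778383-20778483 on the plus strand of WBcel235, are shown for contrast and have no capitals, since no GATA word was present.
hif-1 IDR peak centre: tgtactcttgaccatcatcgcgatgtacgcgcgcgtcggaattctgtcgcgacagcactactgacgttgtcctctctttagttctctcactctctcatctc

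**Figure D3:**
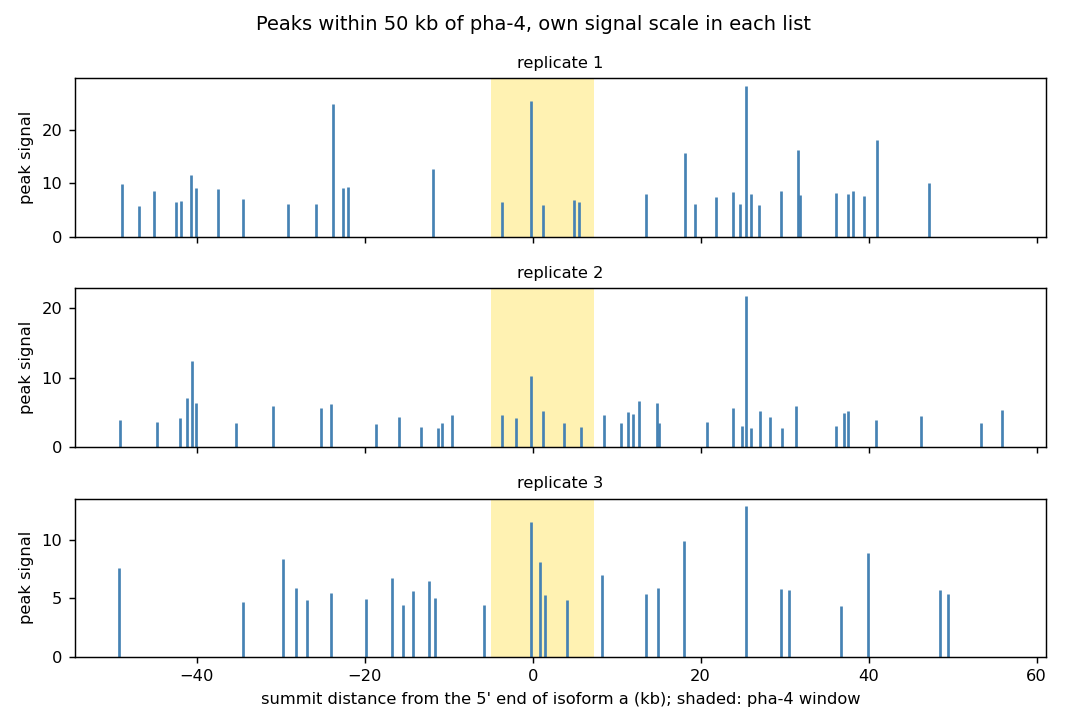
Signal of every peak within 50 kb of pha-4 in replicates 1, 2 and 3, each on its own scale, by distance of the summit in kb from the 5' end of isoform a; the shaded band is the pha-4 window. The pha-4 line stands next in height to that of the hif-1 peak in replicates 1 and 3, at 25.4 and 11.5, and comes after another line at the left in replicate 2, at 10.3.

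Of the peaks in this region, 38 in the pooled list and 38, 45 and 28 in replicates 1, 2 and 3, the pha-4 promoter was next to the hif-1 peak by signal in the pooled list and in replicates 1 and 3. In replicate 2 it also stood behind a peak ranked 597 near Y44A6C.1. The peak ranked after it differed between lists. It was the ipla-3 promoter in the pooled list and replicate 1, at 993 and 284, the elp-1 promoter in replicate 3, at 1667, and a peak near Y44A6C.1 in replicate 2, at 3095.

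Among the 5 nearest protein-coding genes on each side, 3 of 10 had an IDR peak, and all 3, F38A6.5, F38A6.4 and hif-1, held the same one. The genes that flank pha-4 directly had none. On the left, dnj-25, which encodes a DnaJ protein related to auxilin, lay 8705 bp away, and its best ranks were 2882, 10606 and 9620 in replicates 1, 2 and 3. On the right, elp-1, which encodes a microtubule-binding protein of the EMAP type, lay 4653 bp away, with 1304, 3812 and 1667. For ipla-3, of the calcium-independent phospholipase A2 family, the best ranks were 284, 4955 and 4038, so a rank near that of pha-4 in replicate 1 did not recur. The chemoreceptor gene srxa-1 held the same pooled peak, ranked 993, as ipla-3. The remaining 3 neighbours, srxa-6, Y44A6C.2 and Y44A6D.1, had best pooled ranks of 11233, 19699 and 1931.

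**Figure D4:**
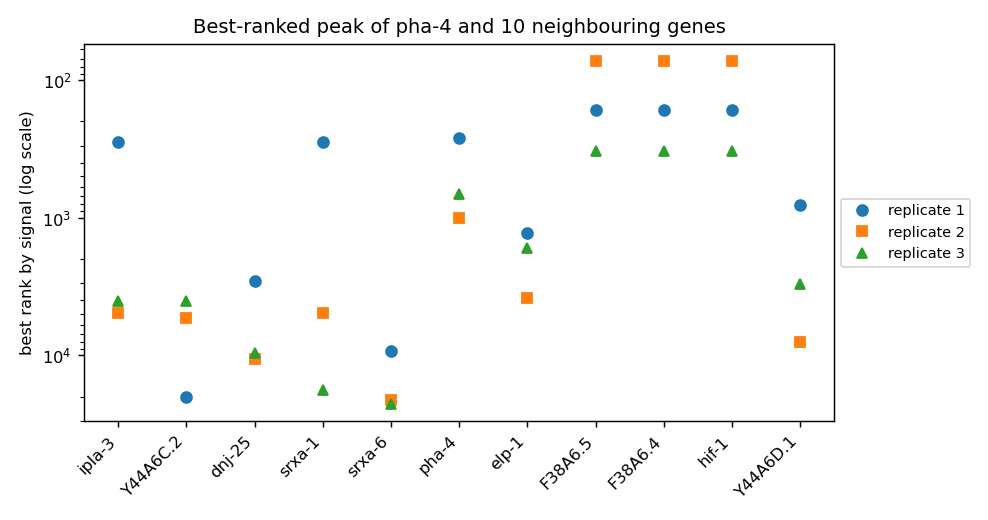
Best rank by signal (log scale, 1 at the top) of pha-4 and 10 neighbouring genes in genome order, with a marker for each of the 3 replicates. The markers of pha-4 lie between 262 and 1010, those of hif-1, F38A6.4 and F38A6.5, which share a peak, between 73 and 328, and every other neighbour has at least 1 marker at rank 3812 or beyond.

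Alikeness to pha-4 was measured as the Euclidean distance of log10 ranks over the 3 replicates, and says only that peaks ranked alike. The nearest IDR peak was 145 bp upstream of hpo-15, a gene whose loss makes worms hypersensitive to pore-forming toxin, with ranks of 201, 761 and 731 and a distance of 0.172. Next came W06H8.6, at 0.174, with ranks of 195, 1011 and 515 and a summit 2611 bp upstream. The peaks of nas-19, an astacin-type protease, atf-7, a bZIP factor, and C23H3.2 followed at 0.267, 0.276 and 0.276, with replicate 2 ranks of 1677, 1654 and 1876. Of these peaks hpo-15 had 2 TGATAA words, W06H8.6 had 1, nas-19 had 2, atf-7 had 1 and C23H3.2 had 3.

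A peak of the same factor at other regulators of the organs that need PHA-4 was looked for in 5 gene lists, which held 61 genes in all. Besides pha-4, 4 of the other 60 genes had an IDR peak by the same rule, namely fkh-9, skn-1, lag-1 and elt-2. The share over all genes was 5.40%.

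Of the 15 fork head genes listed, pha-4 and fkh-9 had IDR peaks (13.3%), or 1 of 14 genes without pha-4. At fkh-9 there were 2, both inside the gene, at ranks 50 and 592. The first of them, 2886 bp after the nearest 5' end, ranked 356, 150 and 15 in replicates 1, 2 and 3, and it was in all 3 top lists, where the pha-4 peak was in 2. It held 1 TGATAA and no TGATAAG. The second fkh-9 peak had no match in replicate 3. The closest family members without an IDR peak were fkh-7, at pooled rank 779, daf-16, the FoxO factor of insulin signalling, at 1591, and let-381, at 3843. The genes fkh-2, fkh-3 and fkh-4 had no pooled peak. Over the 12 family members with a pooled peak the median best pooled rank was 9018, beside 7550 over the 17823 genes of the genome with one. With genes that had no pooled peak placed last, these medians became 16189 and 8920.

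Among 16 regulators of pharynx development, pha-4 had the best pooled rank, and skn-1 and lag-1 also had an IDR peak (18.8%). Without pha-4 it was 2 of 15 genes. Over the 15 regulators with a pooled peak, pha-4 included, the median best pooled rank was 4967, beside 7550 over all genes with one. With genes that had no pooled peak placed last, these medians became 5848.5 and 8920. The peak of skn-1, a bZIP factor that specifies the precursor of gut and pharynx, ranked 610 and lay in the gene body. It ranked 719 in replicate 1 and 23 in replicate 3, with no match in replicate 2. The peak of lag-1, the DNA-binding effector of Notch signalling, ranked 658 in the IDR list. It ranked 3420 in replicate 1 and 420 in replicate 2, with no match in replicate 3, which matched the fewest IDR peaks. The T-box gene tbx-2 of anterior pharynx muscle stood at 722, just after the last IDR rank, and pop-1 and eya-1 at 1636 and 3609. Of 10 genes of pharynx muscle and gland, the effectors of the organ, 0 had an IDR peak, beside 5.40% of all genes. So few genes cannot tell 0 from that share, and their median best pooled rank was 8014. The gland genes phat-1 and phat-2 shared a peak at 1214, and the troponin C gene tnc-2 stood at 3380.

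Of 9 endoderm and gut regulators, pha-4, elt-2 and skn-1 had an IDR peak (33.3%), or 2 of 8 without pha-4. The median best pooled rank of the 9 was 8917. For elt-2, whose product is the leading GATA factor in gut cells, the list had IDR peaks at ranks 365 and 436, both upstream of it, at 352 and 1655 bp. The first ranked 557, 166 and 577 in replicates 1, 2 and 3. Replicates 2 and 3 thus placed elt-2 ahead of pha-4, and replicate 1 placed pha-4 ahead. The second elt-2 peak had no match in replicate 3. Of 14 genes tied to pha-4 in diet-restriction longevity, 0 had an IDR peak, beside 5.40% of all genes. These too are too few to tell 0 from that share, and their median was 5964.5. The best placed were rsks-1, the S6 kinase gene, at 1734, lgg-1, an autophagy gene, at 2184, and smk-1, a cofactor of PHA-4, at 3083. The lists are small and include pha-4 itself and skn-1 more than once. They were not matched for window length, so their shares and medians are descriptions.

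**Figure D5:**
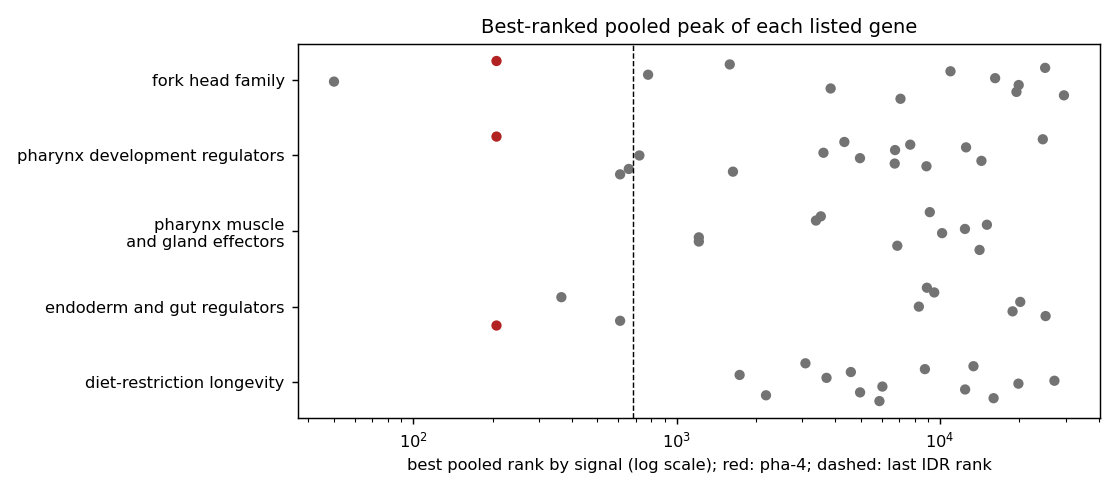
Best pooled rank by signal (log scale) of each gene of the 5 lists, with pha-4 in red and the last IDR rank, 682, as a dashed line. The genes fkh-2, fkh-3, fkh-4 and tbx-38 had no pooled peak and are not drawn; in the lists that hold it, pha-4 is the leftmost point except in the fork head family, where fkh-9 stands at 50.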

How the data were processed

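The data were ChIP-seq peak lists of tagged PQM-1 from 3 biological replicates of whole L1 larvae in 1 group, made from sonicated chromatin, per the labels. Peaks of single replicates and of their pooled alignments were called against 1 control, and the IDR list derives from these lists, per the deposited README. The aligner, the caller and its IDR cutoff were not given in the sources used here. The deposited signal (column 7) comes from the authors' caller and was used only within a list. Column 9, a deposited score, served for an alternative ranking alone. Pooled peaks were 290 bp wide, as were IDR peaks, but replicate peaks were 330, 310 and 240 bp wide in turn, which affects overlaps.

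From these lists, Python 3.11.15 with pandas 2.3.3 ranked peaks by signal. Lists on ce11 were used and coordinates were not converted from ce10. Genes came from Ensembl release 115 and sequence from the RefSeq copy of WBcel235. A replicate peak matched the IDR peak when it covered at least 50% of it, and a top list was the highest 682 peaks. The code was tested on simulated data. The gene, the gene lists and the words were chosen with earlier results of these data known. Named genes were pha-4, the 5 nearest genes on each side, the 5 IDR peaks most like it by replicate ranks, list genes with an IDR peak, and up to 3 of each list without one, taken by pooled rank after the values were seen. The genes tbx-38, fkh-2, fkh-3, fkh-4 and Y44A6C.1 were named outside this rule.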

Additional observations from a re-analysis of the deposited data

How the results depend on the processing

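With 1000 or 2000 bp upstream in place of 5000 bp, or any overlap of a peak with the window, pha-4 kept 1 IDR peak, and the share of genes with one became 2.81% and 3.45% with the shorter windows. The promoter peak was in 1 replicate top list when that list was 341 peaks long, and in 3 when it was 1364 long. TGATAAG lay at 0 pha-4 IDR summits within 50 bp, at 1 within 100 bp, at 1 anywhere in the peak and at 1 when the summit of replicate 1 was used, a choice added after seeing the data. Leaving out each replicate in turn moved the mean rank between 468.0 and 842.0. Ranking by column 9, also added after seeing the data, gave a mean rank of 748.7. A planned ranking by column 8 gave no value, since that column was -1 for every peak. No paired analysis was possible because all samples formed 1 group. In total 28 recomputed values stayed within the spread between replicates or within 1.5 times of the count, and 6 did not.

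For limits, 3 replicate lists set the precision of any mean, and the lists give neither read counts nor errors of a signal, so no interval was computed and depth is unknown. The relaxed lists all stop at 30000 peaks, so weaker peaks are not analysed here. The control was not analysed here. Distances to pha-4 run to annotated coding starts.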
